A study of Drosophila melanogaster with 4 samples.

Results

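The regions described here are those enriched for histone H3 dimethylated at lysine 4 (H3K4me2) at 4 loci that pattern the imaginal discs of Drosophila melanogaster, the larval epithelia that form the adult wings, legs and eyes. They were all enriched regions, depleted ones left out, that shared at least 1 bp with a fixed window around dpp, around wg, Wnt6 and Wnt10, around salm and salr on arm 2L, or around bab1 and bab2 on arm 3L. Of the 4752 enriched regions of replicate 1, 10 met this rule. It was met by 10 of 4701 in replicate 2 and by 13 of 4991 in the list that the authors made from the combined replicates. Chromatin came from nuclei of wild-type Oregon-R larvae in the third instar, the last larval stage, and the labels name no transgene, mutation or treatment. The series had 2 immunoprecipitates with an antibody to H3K4me2 and 2 inputs, which are sonicated chromatin sequenced without an antibody. Each immunoprecipitate had its own list of regions, called against the input of the same number, and each region carried a score of the authors' own, on a scale the sources used here do not state. Whether the larvae of each replicate were collected separately is not given in the labels, so replicate SDs may reflect technical variation alone. The read depth behind the lists is unknown.

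H3K4me2 is a histone modification of promoters and enhancers, found both where genes are transcribed and where they are held ready for transcription. The product of dpp (decapentaplegic) is a secreted ligand of the bone morphogenetic protein family, which patterns the wing disc along its anterior-posterior axis. The product of wg (wingless) is the founding Wnt ligand of the fly, and Wnt6 and Wnt10 encode further Wnt ligands beside it. The spalt genes salm and salr encode zinc finger transcription factors that respond to Dpp signalling in the wing. The bric-a-brac genes bab1 and bab2 encode transcription factors with a BTB domain, which act in the tarsus of the leg, in the ovary and in abdominal pigmentation. These genes are known for regulatory sequences spread over long stretches of DNA around them.

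The windows lie in FlyBase release 5, the assembly of the lists, at 2L 2420000 to 2490000 for dpp, 2L 7250000 to 7380000 for the Wnt genes, 2L 11300000 to 11480000 for the spalt genes and 3L 1020000 to 1190000 for the bab genes. All 8 genes were found in a RefSeq gene table, which follows release 6 and was therefore used only for the order of genes. In that order dpp stands between the coding genes CG44139 and Slh. The Wnt genes follow each other as wg, Wnt6 and Wnt10, with CG31909 before them and ninaC after them. No coding gene stands between salr and salm, which have CG14926 and sala as outer neighbours, and none between bab1 and bab2, which have CG9205 and CG13912. Where a region falls within a gene (promoter, exon, intron or UTR) was not analysed here, because no annotation of release 5 was used.

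The first question was how much of each locus carried the mark, against all windows of the same size on its arm. The Wnt and spalt windows were sparsely marked. The bab window lay between the lower quartile and the median of its arm, and the dpp window was close to the middle. In the dpp window, 10.6% of the sequence was covered in replicate 1 and 13.5% in replicate 2 (mean 12.0% ± 2.05, SD, n = 2). The bab window had 8.55% and 7.81% covered, with a mean of 8.18% ± 0.522 (SD, n = 2). The spalt window had 4.33% and 5.00% covered, with a mean of 4.66% ± 0.471 (SD, n = 2). The Wnt window had 2.11% and 2.04% covered, with a mean of 2.07% ± 0.0441 (SD, n = 2). The order dpp, bab, spalt, Wnt was the same in both replicates, whose values did not overlap between neighbours in that order. With each window narrowed by 10 kb on each side, however, dpp (7.46%) no longer stood above bab (7.73%). Larval nuclei were studied in bulk, so a mark in few cells and a weak mark in many cells cannot be told apart.

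**Figure D1:**
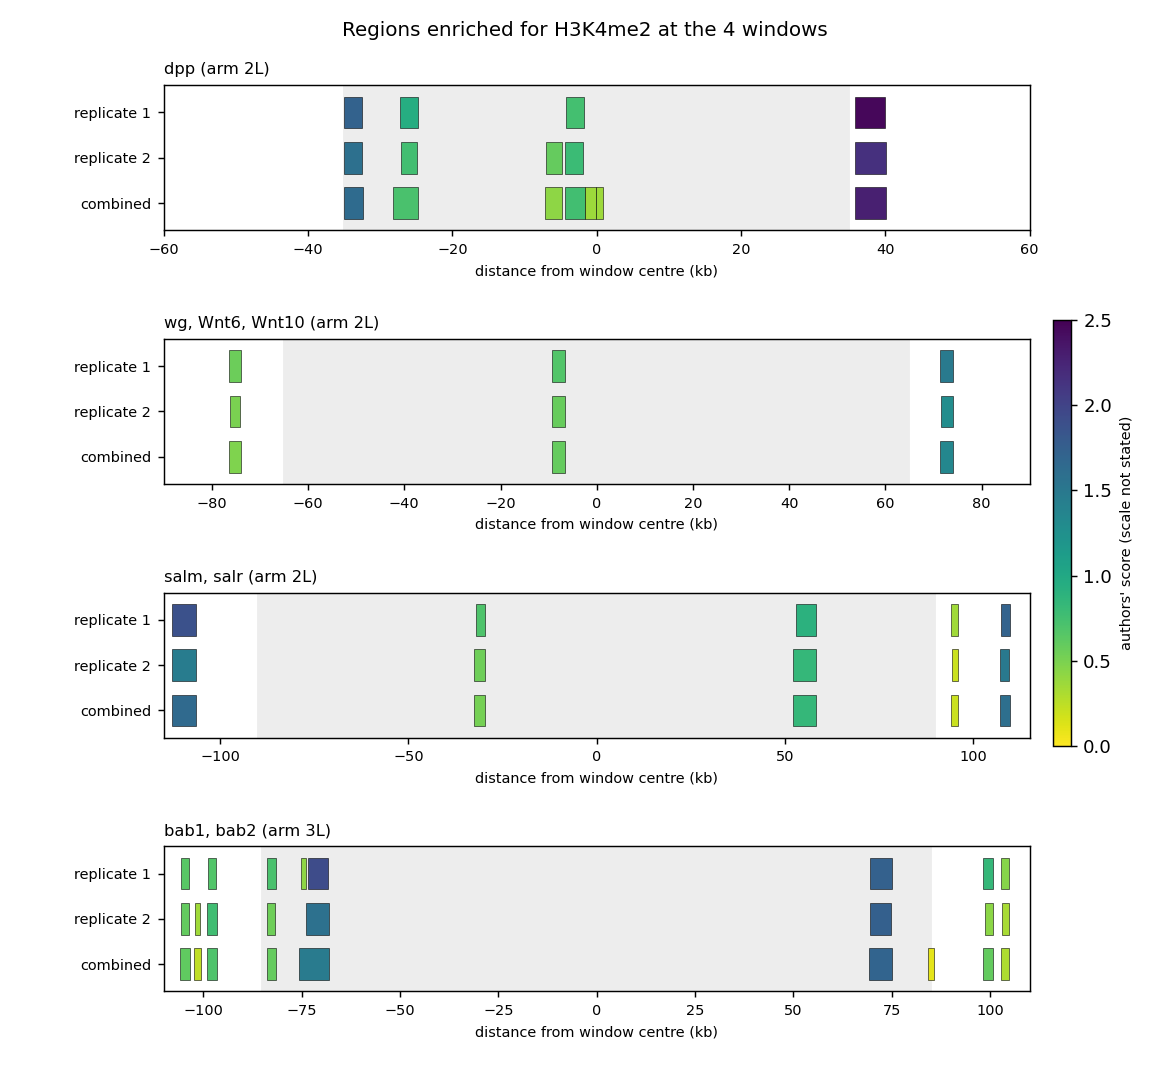
Enriched regions in the 2 replicate lists and the combined list, drawn to scale along the distance from the centre of each window (kb); grey shading marks the window, and colour gives the authors' score. The dpp regions lie in the left part of their window, the Wnt window holds 1 region, and the bab regions lie at both ends with none in the 137 kb between them.

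Whole arms were covered to 15.3% ± 0.250 (2L) and 15.9% ± 0.290 (3L) (SD, n = 2). The arm was thus 7.39 times as densely covered as the Wnt window, 3.29 times as the spalt window, 1.94 times as the bab window and 1.27 times as the dpp window. These ratios depend on where the windows end, since widening by 20 kb on each side took the covered share to 4.41% at the Wnt genes and to 7.28% at the spalt genes, both still below the arm. Sliding windows of each locus's size, with starts every 1 kb, gave the range that each arm itself holds. Each rank, the percentage of windows with a lower covered share, was that of the replicates' mean share. Its SD is that of the replicates' own ranks, which were 13.9% and 14.3% for the Wnt window and need not centre on it. Among 22882 windows of 130 kb on 2L, 13.9% ± 0.287 had a lower covered share than the Wnt window (SD of the replicates' own values, n = 2). Of these windows, 7.82% held no marked base in either replicate, and their median was 13.0%. For the spalt window, 18.5% ± 1.71 of 22832 windows of 180 kb on 2L were lower, and the median of those windows was 13.1%. For the bab window, 28.6% ± 1.83 of 24374 windows of 170 kb on 3L were lower, with a median of 14.7%. For the dpp window, 52.4% ± 5.07 of 22942 windows of 70 kb on 2L were lower, with a median of 11.2%. The Wnt and spalt windows were thus below the lower quartile of their arm (4.94% and 6.62%), whereas the bab window was above it (7.09%). For the spalt window this may depend on its edges, since its share of 7.28% after widening is above 6.62%. The widened Wnt share of 4.41% is still below 4.94%. Quartiles for windows of the widened sizes were not computed. Neighbouring windows overlap and are not independent, so these ranks describe the arm and give no test.

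**Figure D2:**
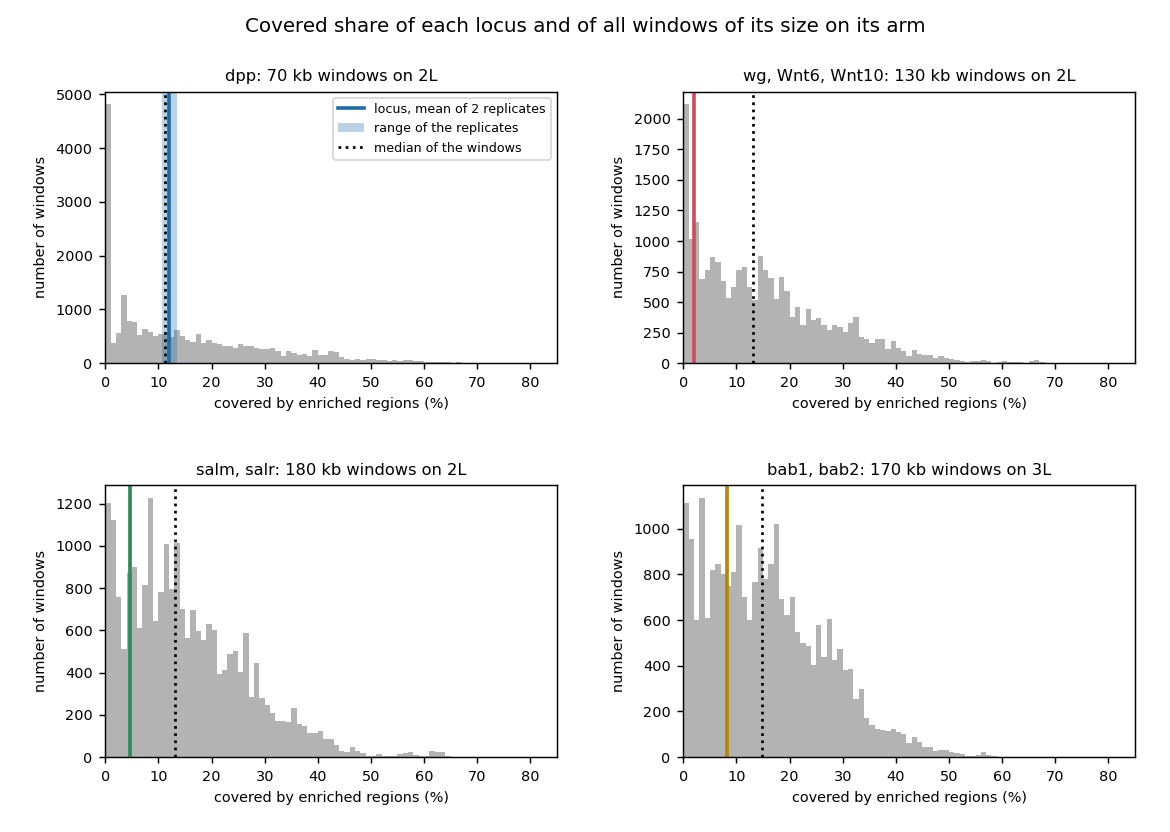
Number of windows (grey bars) by the share of their sequence covered by enriched regions (%, mean of the 2 replicates), for all windows of each locus's size on its arm. The coloured line is the locus, the band around it the range of its 2 replicates (narrower than the line at 3 loci), and the dotted line the median of the windows; Wnt (2.07%), spalt (4.66%) and bab (8.18%) lie left of the median, and dpp (12.0%) just right of it.

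Few regions made up these shares, and except at dpp they were fewer than in the median window. The Wnt window held 1 region in each replicate, where the median window of its size on 2L held 4. The spalt window held 2 in each replicate against a median of 6. The bab window held 4 regions in replicate 1 and 3 in replicate 2, against a median of 6. The dpp window held 3 and 4, against a median of 2 for windows of 70 kb. In steps of 10 kb, 1 of 13 bins of the Wnt window, 3 of 18 of the spalt window and 3 of 17 of the bab window held marked sequence in each replicate. In the dpp window 3 of 7 bins did so in replicate 1 and 4 of 7 in replicate 2. Over all of 2L the share of marked bins was 38.2% in replicate 1 and 37.2% in replicate 2, and over 3L it was 40.5% and 39.3%.

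At dpp, all sequence marked in either replicate lay between the left edge and the middle of the window. The first region ran across the left edge, from 2419992 to 2422522 in replicate 1 and from 2419970 to 2422480 in replicate 2, and scored 1.72 and 1.59. It was the highest-scoring and longest region of this window found in both replicates, with a mean length of 2521 bp ± 14.1 (SD, n = 2). The second region, 2427765 to 2430194 in replicate 1, scored 0.95 and 0.76. The third, 2450714 to 2453178 in replicate 1, scored 0.74 and 0.80. Only the first scored above the median of its list, which was 1.55 in replicate 1 and 1.43 in replicate 2. Since it starts at the very edge of the window, the share of 12.0% rests partly on where that edge was drawn. A further region of replicate 2, 2448006 to 2450157 (2152 bp, score 0.59), had no counterpart in replicate 1, and it ended 481 bp left of the third region of its own list.

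Right of the third dpp region, neither replicate had a region for 37.6 kb, from 2453179 to 2490793, of which 36.8 kb lay inside the window. The next region began 794 bp past the window in replicate 1 and 821 bp past it in replicate 2. It was 4207 and 4219 bp long and scored 2.46 and 2.15, higher than any region inside the window. The combined list placed 2 short regions at the left end of this gap, at 2453391 to 2454835 (1445 bp, score 0.36) and 2454919 to 2455928 (1010 bp, score 0.37). With these, and with longer calls elsewhere, the combined list covered 19.2% of the dpp window, more than either replicate.

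The Wnt window of 130 kb held a single region. It spanned 7305694 to 7308431 in replicate 1 (2738 bp) and 7305654 to 7308310 in replicate 2 (2657 bp), and scored 0.68 and 0.58. Its edges differed by 40 and 121 bp between the replicates. The combined list also had this region alone, at 7305618 to 7308441 with a score of 0.59. Of all regions in the list, 16.7% scored lower in replicate 1 and 13.0% in replicate 2. To its left no region followed for 64.7 kb, from 7240978 to 7305653, and to its right none for 78.0 kb, from 7308432 to 7386412. Both gaps ran past the window. The window thus held 1 region for 3 Wnt ligand genes, and which of them it lies nearest to was not analysed here.

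The spalt window held 2 regions, both with scores below the median of their list. The shorter spanned 11357924 to 11360254 in replicate 1 (2331 bp) and 11357454 to 11360262 in replicate 2 (2809 bp), with scores of 0.70 and 0.55. The longer spanned 11442859 to 11448325 in replicate 1 (5467 bp) and 11442084 to 11448270 in replicate 2 (6187 bp), with scores of 0.90 and 0.84. It was the longest and the highest-scoring region of this window. Both regions reached further left in replicate 2, by 470 and 775 bp, while their right edges differed by 8 and 55 bp. Between them lay 81.8 kb, from 11360263 to 11442083, without a region in either replicate, and the combined list added none there.

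The longer spalt region combined a broad call with a low score. Among regions on 2L and 3L of like length (within 10% of it), 1.86% of 161 in replicate 1 and 0.763% of 131 in replicate 2 scored lower. The Wnt region was also low for its length, with 6.08% of 362 regions of like length below it in replicate 1 and 2.09% of 383 in replicate 2. The shorter spalt region had 26.1% of 261 below it in replicate 1 and 1.18% of 340 in replicate 2. Both its length and its score differed between the replicates. The first dpp region was high for its length, with 81.5% of 363 below it in replicate 1 and 89.5% of 361 in replicate 2. The second dpp region had 36.8% below it in replicate 1 and 39.4% in replicate 2. For the third these values were 18.0% and 20.7%. The bab regions found in both replicates were nearer the middle, with between 31.0% and 56.7% below them. This measure was chosen after the values had been seen and is a description of single regions, with no test.

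**Figure D3:**
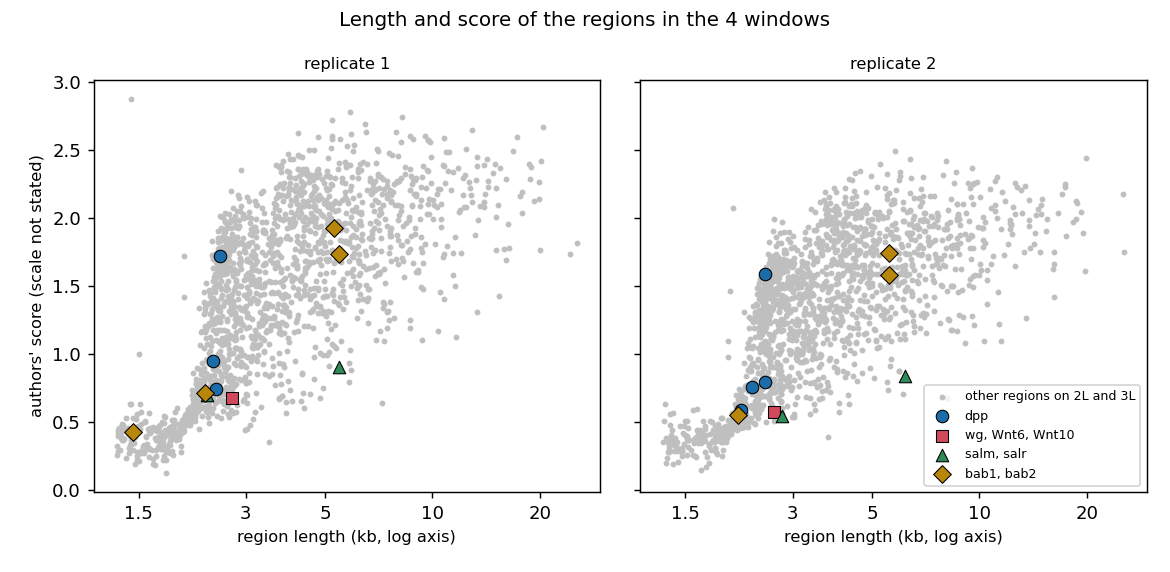
Length (kb, log axis) and score of every enriched region on 2L and 3L (grey) in replicates 1 and 2, with those of the 4 loci in colour. The longer spalt region (5.47 and 6.19 kb, scores 0.90 and 0.84) lies at the lower edge of the cloud in both panels, while the 2 long bab regions lie inside it.

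At bab1 and bab2 the mark lay at both ends of the window. On the left, a region at 1021191 to 1023494 in replicate 1 (2304 bp) and 1021162 to 1023264 in replicate 2 (2103 bp) scored 0.71 and 0.55. Further right, after a region of 1451 bp found in replicate 1 alone (1029780 to 1031230, score 0.43), came the highest-scoring region of the window in replicate 1, at 1031521 to 1036821 (5301 bp, score 1.92). Its counterpart in replicate 2 was at 1031257 to 1036854 (5598 bp, score 1.58). On the right, a region at 1174464 to 1179936 in replicate 1 (5473 bp) and 1174325 to 1179897 in replicate 2 (5573 bp) scored 1.74 in each. The 2 long regions had mean lengths of 5450 bp ± 210.0 and 5523 bp ± 70.7 (SD, n = 2). Their mean scores were 1.75 ± 0.245 and 1.74 ± 0.00100 (SD, n = 2). Whether the 2 regions differed was not tested. Both were above the median score of their list, unlike every region of the Wnt and spalt windows.

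Between the 2 long bab regions lay 137 kb without a region in either replicate, from 1036855 to 1174324, and the combined list added none there. Of 923 gaps on 3L, 23 were at least as long, this one included, and 97.5% were shorter. The long gaps of the Wnt and spalt windows ranked lower on 2L, where 92.3% of 822 gaps were shorter than the 78.0 kb gap at the Wnt genes and 92.8% were shorter than the 81.8 kb gap at the spalt genes. The longest gap at dpp was longer than 82.7% of them. Median gaps were 6.98 kb on 2L and 7.66 kb on 3L. These shares rank single gaps, and a long gap fills more of the arm than a short one. A window therefore meets long gaps more often than their share of all gaps implies. The longest gap of other windows of the same size was not computed, so these shares do not rank the windows. A stretch without a called region is not shown to lack the mark, since depth and the threshold of the caller are unknown.

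**Figure D4:**
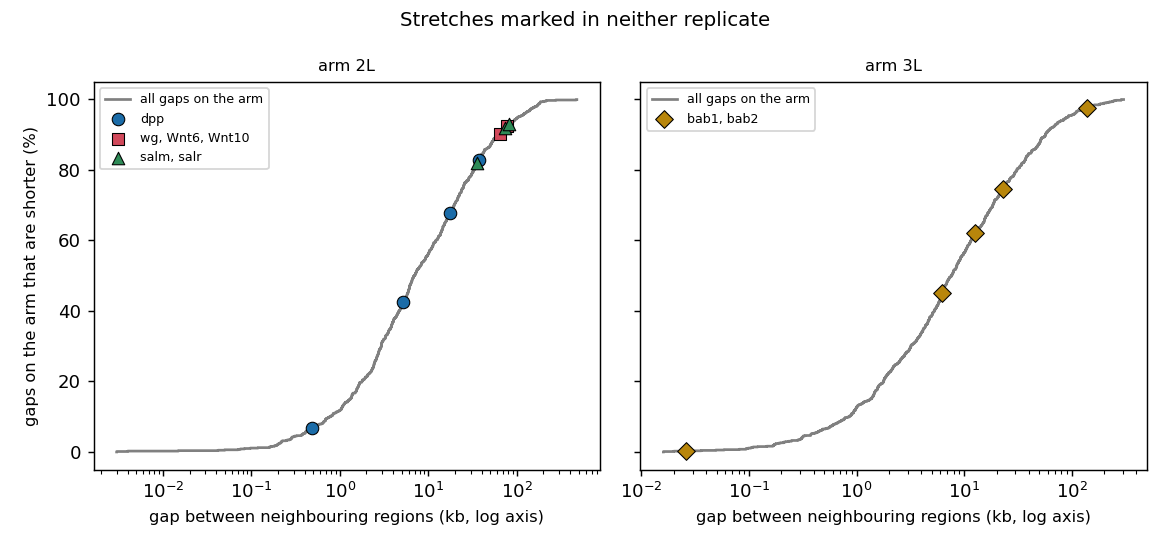
Length of each gap marked in neither replicate (kb, log axis) against the share of gaps on the same arm that are shorter (%), with the gaps that overlap the 4 windows in colour. The bab gap of 137 kb is longer than 97.5% of gaps on 3L, and the longest Wnt and spalt gaps are longer than 92.3% and 92.8% of those on 2L. Gaps are ranked singly, not as the longest gap of a window of the same size.

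Over the 4 windows, 3 of 10 regions in each replicate were 5 kb or longer, namely the longer spalt region and both long bab regions. On 2L and 3L together 26.1% of regions in replicate 1 and 25.3% in replicate 2 were that long, so this share was near the background. Of the 13 regions in the combined list, 3 were that long, where the background was 28.2%. No region of the 4 windows reached 10 kb in any list, where the background on 2L and 3L was 5.11% in replicate 1, 4.67% in replicate 2 and 6.06% in the combined list, so 0 of 10 or 13 is near the background. Scores above the median of the list were found for 3 of 10 regions in each replicate (the first dpp region and both long bab regions), where the background on 2L and 3L was 49.1% in replicate 1 and 48.7% in replicate 2. In the combined list it was again 3 of 13, where the background was 49.1%. With 10 regions in a list, 1 region more or less moves these shares by 10 percentage points, and no test was made.

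The second question was how far the replicates marked the same sequence at these loci. In each replicate 9 of 10 regions overlapped a region of the other, where the background on 2L and 3L was 95.2% in replicate 1 and 97.8% in replicate 2. The exceptions were the dpp region of replicate 2 given above and the bab region of 1451 bp in replicate 1, which ended 26 bp short of the long region of replicate 2. The combined list joined it to its neighbour in 1 region of 7532 bp, from 1029332 to 1036863. Of the sequence marked in either replicate, 94.2% was shared at the Wnt genes, 85.5% at the spalt genes, 85.4% at the bab genes and 74.8% at dpp. Together the windows shared 83.3%, which was 30.4 of 36.5 kb, against 91.3% over 2L and 3L. The edges of the 9 matched regions differed by a median of 55 bp and at most by 775 bp, and those of the 1563 matched regions on 2L and 3L by a median of 64 bp. Scores were higher in replicate 1 for 7 of the 9, with a median difference of 0.13, as they were for 85.2% of matched regions on 2L and 3L, with a median difference of 0.16.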

How the data were processed

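H3K4me2 ChIP-seq of 2 immunoprecipitates was analysed from lists of regions, and no file of the 2 inputs was used. The submitters' processing notes name Bowtie 0.12.7, a read aligner, and per the file headers the coordinates are those of FlyBase release 5. The deposited files give every region 1 score from the authors, without its scale or log base. Which program called the regions, at what threshold, and how the combined list was made is not given in the sources used here. Read counts are not part of the lists, so the depth is unknown and values carry no counting interval.

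Covered shares were computed per window and list, with mean and SD over 2 replicates. Values of the combined list are pooled and have no error. Ranks are the percentage of windows of the same size, starting every 1 kb, whose covered share is lower. Gaps are stretches between neighbouring regions of both replicate lists together. Regions overlapped if they shared 1 bp. No significance test was made, since the replicates form 1 group. The code was tested on simulated regions of known coverage. The windows, genes and measures were chosen with earlier results of these data known. The rule for named regions took the longest and highest-scoring region of each window and any of 10 kb or more. It also took the longest gap and each region found in 1 list alone. All other regions of the replicate lists were named as well, and those of the combined list in part. Alternatives were the combined list, higher scores only, moved window edges, non-overlapping windows, arm ends left out, joining regions under 500 bp apart, and leaving out each replicate. Comparison with regions of like length was added later. Computations used Python 3.11.15, numpy 2.4.6 and matplotlib 3.10.9.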

Additional observations from a re-analysis of the deposited data

How the results depend on the processing

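The ranks of the Wnt, spalt and bab windows remained below 50% under each alternative for which a rank was computed. No rank was computed for windows with moved edges, so how far the ranks depend on the edges is not known. The combined list gave covered shares of 19.2% (dpp), 2.17% (Wnt) and 9.58% (bab), with ranks of 63.8% (dpp) and 13.2% (Wnt). With only the regions scoring above the median of their list, shares were 3.57% (dpp), 6.45% (bab) and 0% at both the Wnt and spalt genes, by construction lower. Ranks were then 39.8% (bab) and 0% (Wnt and spalt), the latter tied with the 24.5% and 15.9% of windows that also held none. Windows widened by 20 kb on each side gave 4.41% (Wnt), 7.28% (spalt) and 10.7% (bab), and windows narrowed by 10 kb gave 7.46% (dpp), 2.45% (Wnt) and 5.25% (spalt). Non-overlapping windows put the Wnt rank at 15.3%, and leaving out the first and last 1 Mb of the arm put the bab rank at 26.6%. Without either replicate the Wnt rank was 13.9% to 14.3%. The shared sequence was 96.2% for higher-scoring regions, which were 3 in each replicate and lay in the dpp and bab windows alone. The same value over 2L and 3L was not computed for higher-scoring regions. Of 76 alternatives, 49 moved a value by less than its spread between replicates (shared sequence: between windows) or a count by no more than 50%. Leaving out a replicate cannot move a covered share beyond 1 SD, so those tell nothing. Joining left the count, median length and longest gap of the Wnt and spalt windows unchanged. The 49 thus include alternatives that changed nothing. The cause of the moves was not tested. No paired analysis was possible because only the immunoprecipitates have lists, which leaves nothing to pair by replicate number.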

Other observations

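The stretches beside these loci were marked unevenly. The window of equal size to the left of the dpp window was covered to 29.2% ± 2.40 and the one to the right to 6.02% ± 0.0121 (SD, n = 2). On both sides of the Wnt window the share was higher than inside, at 14.1% ± 0.140 on the left and 17.2% ± 0.936 on the right (SD, n = 2), with 7 regions on the left in each replicate and 8 and 7 on the right. The spalt window had 17.2% ± 0.201 on its left and 5.24% ± 0.146 on its right (SD, n = 2), so sparse marking went on to the right of it. The bab window had 13.5% ± 0.385 on its left and 33.6% ± 0.685 on its right (SD, n = 2), and 93.4% of windows of that size on 3L were lower than the latter. The lowest score at these loci was that of a region in the combined list alone, 3L 1189310 to 1190717 (1408 bp, score 0.099), which crossed the right edge of the bab window. Of all regions in that list, 0.200% scored lower.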
